A study of Mus musculus with 9 samples.

Results

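Transcripts of 10 stem and early progenitor genes were followed in sorted mouse erythroblasts with and without the corepressor gene Trim28. The set was Kit, Angpt1, Cd34, Cd48, Runx1, Meis1, Myb, Myc, Lmo4 and Cdk6, taken by symbol out of 23285 genes in the deposited expression table, and all 10 were tested in every comparison. Bone marrow cells of C57BL/6 mice were profiled by RNA sequencing in 9 libraries, 3 in each of 3 groups. The control group FFa consisted of CD71(hi)TER119+ cells of TRIM28(flox/flox) mice that carry no Cre. KOa cells passed the same gate but came from TRIM28(flox/flox):Mx1Cre mice and are labelled as modestly deleted. KOb cells came from mice of that mutant genotype, were CD71(hi)TER119- and are labelled as severely deleted. Mx1Cre is an interferon-inducible recombinase that acts in many blood cell types, and poly(I:C) was given 5 times to induce it, with analysis 2 weeks after the last dose. Ages, and whether control mice were injected, were not given in the sources used here.

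Blood stem cells and early progenitors are held in an undifferentiated, expandable state by surface receptors such as KIT and by transcription factors such as RUNX1, MEIS1, MYB and MYC. Many of these genes are turned down as erythroid precursors take up the GATA1 programme, fill with hemoglobin and leave the cell cycle. TER119, a surface epitope of erythroid cells, appears during that maturation, while CD71, the transferrin receptor, is at its highest in young erythroblasts. A TER119-negative gate therefore sits earlier than a TER119-positive one in normal erythropoiesis.

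Each value below is an FPKM, a fragment count scaled to transcript length and sequencing depth, which the authors gave once per gene and group. Values per library were not used, so no SD can be given, the depth is unknown and the overlap of libraries between groups cannot be judged. A gene was called where its Cuffdiff q in the authors' deposited table was below 0.05. The error after ± is the standard error that the deposited test statistic implies, and intervals are 95% intervals drawn from it. Trim28 (chromosome 7, 13024152 to 13031032 of mm10) stood at 26.0 FPKM in FFa, 6.64 in KOa and 4.76 in KOb. It was called lower in both mutants, while KOb and KOa themselves differed by -0.48 ± 0.32 (log2, Cuffdiff q = 0.0535 in the authors' deposited table). Erythroid identity was seen in every group, with Gata1 at 118, 138 and 105 FPKM in FFa, KOa and KOb, and the CD71 gene Tfrc at 81.4, 62.5 and 61.8. KOb differs from FFa in gate as well as in genotype, and the effects of the gate and of the deletion cannot be told apart there. Both mutants were compared with the 1 control group, so those comparisons share its libraries. Globin genes made up 64.6% of the summed FPKM in FFa, 76.3% in KOa and 53.3% in KOb. Scaling to the sum without them would raise log2 ratios by 0.54 for KOa and by 0.51 for KOb, both set against FFa. In bulk RNA, more cells of a type and more RNA per cell cannot be told apart either.

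The 10 genes did not move as a block. In KOa, 3 rose (Kit, Angpt1, Runx1) and 4 fell (Myb, Myc, Lmo4, Cd48), against 7.99% higher and 14.1% lower among all genes tested. In KOb against FFa, 7 rose and 1 fell, against 12.8% and 15.2% of all genes. The gene that fell was Lmo4. Between the mutants, 5 of the 10 were higher in KOb (Kit, Cdk6, Myb, Myc, Cd48), where 10% of all genes tested were higher and 6.19% lower. No member was lower in KOb than in KOa by Cuffdiff, 0 had an unadjusted p below 0.05 in that direction, and 0 passed when the deposited statistic was taken as standard normal. The median log2 ratio of the 10 genes was 0.50 for KOa and 1.40 for KOb relative to the control and 0.83 between the mutants, beside -0.08, -0.01 and 0.05 over all genes tested. KOb held the highest level of 9 members and KOa of 0, while FFa held the lowest level of 6.

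**Figure D1:**
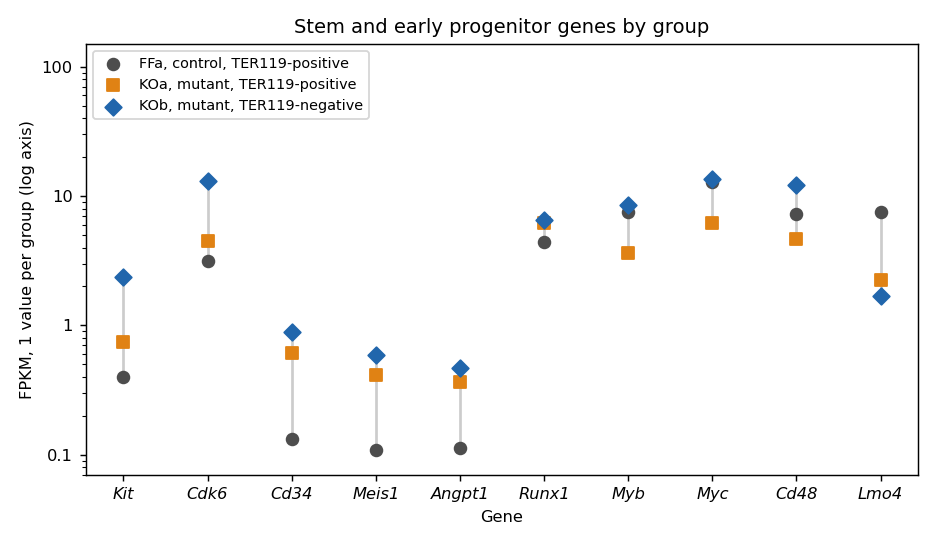
FPKM of each gene on a log axis, 1 point per group (3 libraries pooled by the authors, so no error bar): circles FFa, squares KOa, diamonds KOb. KOb is the highest group for 9 of the 10 genes, and Lmo4 is the exception, falling from 7.59 in FFa to 1.68 in KOb.

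Levels spanned a wide range within each group. In FFa the order by FPKM ran from Myc (12.8) through Lmo4 (7.59), Myb (7.48), Cd48 (7.23), Runx1 (4.44) and Cdk6 (3.14) down to Kit (0.399), Cd34 (0.133), Angpt1 (0.112) and Meis1 (0.108). Thus 6 of the 10 reached 1 FPKM in FFa and in KOa, and 7 did in KOb, where Kit joined them. Whether neighbours in this order differ cannot be judged without values per library.

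The 5 genes called between the mutants are where the groups of 1 genotype part, so the promoters of the 4 with a RefSeq window (GRCm38.p6, the assembly of mm10) are shown. Windows were matched for 8 of the 10 members, all but Myc and Angpt1. Each run is the 250 bases before a transcript start annotated by RefSeq, which for Cdk6 and Cd48 lies upstream of the gene start in the deposited table, read 5′ to 3′ on the strand of the gene, at chr5:75574737-75574986 (plus strand) for Kit, chr5:3343643-3343892 (plus) for Cdk6, chr10:21160985-21161234 (minus) for Myb and chr1:171681742-171681991 (plus) for Cd48. Capitals mark a match to any of 4 short motifs searched on both strands. The motif letters were AGATAA for GATA factors. For MYC bound with MAX they were CACGTG. For RUNX factors the letters were TGTGGT. For MEIS factors they were TGACAG.
Kit: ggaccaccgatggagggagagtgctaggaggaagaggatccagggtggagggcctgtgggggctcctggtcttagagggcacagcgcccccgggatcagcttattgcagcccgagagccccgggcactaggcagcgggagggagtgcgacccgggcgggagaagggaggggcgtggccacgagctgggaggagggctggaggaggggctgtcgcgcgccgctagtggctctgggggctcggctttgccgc
Cdk6: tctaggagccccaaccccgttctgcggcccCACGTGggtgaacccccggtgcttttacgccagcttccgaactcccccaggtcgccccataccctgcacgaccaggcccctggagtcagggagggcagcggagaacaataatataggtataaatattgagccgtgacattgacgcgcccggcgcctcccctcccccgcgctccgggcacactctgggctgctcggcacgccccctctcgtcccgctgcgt
Myb: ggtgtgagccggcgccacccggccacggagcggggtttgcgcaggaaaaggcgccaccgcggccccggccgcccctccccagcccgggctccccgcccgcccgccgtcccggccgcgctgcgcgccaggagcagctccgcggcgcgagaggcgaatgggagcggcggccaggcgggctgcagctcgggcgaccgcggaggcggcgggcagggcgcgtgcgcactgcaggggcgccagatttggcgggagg
Cd48: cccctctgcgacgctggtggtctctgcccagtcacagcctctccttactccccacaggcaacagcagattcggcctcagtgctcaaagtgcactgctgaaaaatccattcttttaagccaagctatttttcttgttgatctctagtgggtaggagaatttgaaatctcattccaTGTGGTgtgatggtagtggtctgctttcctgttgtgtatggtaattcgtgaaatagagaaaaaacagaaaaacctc

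Base composition varied widely. GC made up 70.8% of the Kit window, 66.0% of Cdk6, 81.2% of Myb and 46.0% of Cd48, beside a median of 52.4% over 32851 windows of that length. CACGTG was found in Cdk6, 220 bases before the RefSeq start, and in the upstream one of 2 Runx1 windows, and 6.02% of all windows hold it. TGTGGT was found in Cd48, 76 bases before the RefSeq start, and in Meis1, 166 bases before it, against 14.0% of all windows. AGATAA and TGACAG, present in 9.99% and 15.9% of all windows, matched none of the members' windows. These matches describe letters only.

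KIT is the receptor tyrosine kinase for stem cell factor and is lost as erythroblasts mature. Kit (chromosome 5, 75574987 to 75656721) was at 0.399 FPKM in FFa, 0.751 in KOa and 2.36 in KOb. The 3 groups thus formed steps, with KOb the highest and the control the lowest. The log2 ratio was 0.91 ± 0.54 in KOa against FFa (Cuffdiff q = 0.0248 in the authors' deposited table) and 2.57 ± 0.50 in KOb (q = 0.000619). KOb exceeded KOa by 1.66 ± 0.42 (Cuffdiff q = 0.000619 in the authors' deposited table). The rise in KOa was lost when the statistic was taken as standard normal (q = 0.423), and Kit was below 1 FPKM in both groups compared.

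Of 26 genes acting with KIT tested in KOa, 4 rose and 9 fell (median log2 ratio -0.26), and of 26 in KOb, 4 rose and 8 fell (median -0.39). Over all genes tested, 7.99% were higher and 14.1% lower in KOa, and 12.8% and 15.2% in KOb, and the difference from the list was not tested. The adaptor genes parted: Gab1 went from 2.97 FPKM in FFa to 0.868 in KOa and 0.428 in KOb, whereas Gab2 went from 0.917 to 2.28 and 3.14. Against FFa, Gab1 fell by 1.77 ± 0.39 in KOa and by 2.79 ± 0.47 in KOb, and Gab2 rose by 1.31 ± 0.38 and 1.78 ± 0.37 (log2, all with q = 0.000619 in the authors' deposited table). Ptpn6, which encodes the phosphatase SHP-1 that dampens receptor signalling, was at 13.3 FPKM in FFa, 3.36 in KOa and 6.07 in KOb. It fell in both mutants (-1.99 ± 0.36 and -1.13 ± 0.33, log2) and was higher in KOb than in KOa by 0.85 ± 0.38. Stat5a, a transcription factor activated downstream of KIT and of the erythropoietin receptor, was at 1.51 FPKM in FFa, 1.30 in KOa and 3.53 in KOb. It was called higher in KOb against either other group, by 1.22 ± 0.39 and 1.44 ± 0.40 on the log2 scale. Kitl, the gene of the ligand, was at 0.192 FPKM or lower in every group and was not tested.

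Angiopoietin-1 is a ligand of the TIE2 receptor that stem cells and megakaryocytes can produce. Angpt1 (chromosome 15, 42424725 to 42676795) was at 0.112 FPKM in FFa, 0.367 in KOa and 0.466 in KOb, low throughout. Both mutants were above the control, by 1.72 ± 0.95 in KOa (Cuffdiff q = 0.0462 in the authors' deposited table) and by 2.06 ± 0.93 in KOb (q = 0.0213), on the log2 scale. The KOa interval of -0.14 to 3.58 reaches past 0, and the KOa call was lost with the statistic taken as standard normal (q = 0.368). KOb and KOa differed by 0.34 ± 0.64, with an interval of -0.91 to 1.60, which did not pass. The TIE2 gene Tek was at 0.0223 FPKM in FFa, 0.102 in KOa, then 0.118 in KOb and was not tested. Of the other angiopoietin and TIE genes, 3 were tested in KOa, 2 in KOb against FFa and 3 between the mutants. By Cuffdiff 0 were called. The shares over all genes tested were 7.99% higher and 14.1% lower in KOa, and 12.8% and 15.2% in KOb. Between the mutants they were 10% and 6.19%. A count of 0 among so few is near these shares and does not set Angpt1 apart from its list. At an unadjusted p below 0.05, 1 of the tested genes was higher in KOb than in KOa, and with the statistic taken as standard normal 0 passed. The list's best expressed members were Angptl4 (0.633 FPKM in FFa, 0.530 in KOa, 0.994 in KOb) and Angptl6 (0.379, 0.368 and 0.390).

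CD34 is the sialomucin used to recognise early progenitors. Cd34 (chromosome 1, 194938821 to 194976959) was at 0.133 FPKM in FFa, 0.609 in KOa and 0.887 in KOb. It rose in KOb against FFa (log2 ratio 2.73 ± 1.23, Cuffdiff q = 0.0439 in the authors' deposited table). The KOa value of 2.19 ± 1.29 did not pass (q = 0.0902), and neither did KOb against KOa, at 0.54 ± 0.69. The predicted gene Gm16897 overlaps the deposited Cd34 locus. It was at 0.0549, 0.258 and 0.0676 FPKM in FFa, KOa and KOb and was not tested, and the use of strand in counting was not given in the sources used here.

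Podxl, which encodes the CD34 relative podocalyxin, went from 0.110 FPKM in FFa to 2.84 in KOa and 7.05 in KOb, and KOb was above KOa by 1.31 ± 0.32 (log2, Cuffdiff q = 0.000619 in the authors' deposited table). Of the 4 genes of the CD34 sialomucin list tested, 2 rose and 2 fell in each mutant. The shares over all genes tested were 7.99% higher and 14.1% lower in KOa, and 12.8% and 15.2% in KOb. Cd164, the endolyn gene, rose by 1.00 ± 0.29 in KOa and 1.08 ± 0.29 in KOb on the log2 scale. Selplg, whose product binds P-selectin on vessel walls and platelets, fell by 1.06 ± 0.29 and 0.92 ± 0.29 on the same scale.

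CD48 is a SLAM family surface protein that is absent from the most primitive stem cells and present on later progenitors and most leukocytes. Cd48 (chromosome 1, 171682055 to 171705257) was at 7.23 FPKM in FFa, 4.62 in KOa and 12.2 in KOb, so the mutants lay on opposite sides of the control. It fell in KOa (log2 ratio -0.64 ± 0.36, Cuffdiff q = 0.0418 in the authors' deposited table) and rose in KOb (0.75 ± 0.31, q = 0.00580). The mutants themselves differed by 1.40 ± 0.34 (q = 0.000619). With the statistic taken as standard normal the difference between the mutants stayed called and both comparisons with FFa were lost (q = 0.367 and 0.107). With FPKM scaled to the sum without globin genes, the KOa ratio shrank to -0.11.

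No other SLAM family gene was called higher in either mutant. In KOa 5 of 7 tested fell and in KOb 5 of 8, in each case Cd2, Ly9, Slamf6, Slamf7 and Slamf9, while 0 rose by Cuffdiff. At an unadjusted p below 0.05, 1 was higher in KOb against FFa, 0 in KOa, and 0 with the statistic taken as standard normal. Over all genes tested, 7.99% were higher and 14.1% lower in KOa, and 12.8% and 15.2% in KOb. A count of 0 higher among so few is near that background. Cd2, whose product binds CD48, went from 5.53 FPKM in FFa to 0.842 in KOa and 0.838 in KOb. Slamf6 went from 1.29 to 0.0929 and 0.116 FPKM and Slamf9 from 1.84 to 0.359 and 0.153. Slamf1, the gene of the stem cell marker CD150, was at 0.222, 0.310 and 0.630 FPKM in FFa, KOa and KOb, and its ratio in KOb of 1.51 ± 0.85 did not pass (Cuffdiff q = 0.0591 in the authors' deposited table). Cd244, the gene of another CD48 receptor, was at 0.152 FPKM or lower and was not tested. Markers of B cells, which also carry several of these proteins, fell beside them, with a summed level of 260.0 FPKM in FFa, 25.6 in KOa, then 23.7 in KOb and 12 of 13 called lower in each mutant. Their part in the SLAM family falls was not tested.

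RUNX1 is a DNA-binding factor needed for blood stem cells to form and for megakaryocytes to mature. Runx1 (chromosome 16, 92601466 to 92826066) was at 4.44 FPKM in FFa, 6.22 in KOa and 6.55 in KOb. Both mutants stood above the control and close to each other. The rises were modest, 0.49 ± 0.32 in KOa (Cuffdiff q = 0.0356 in the authors' deposited table) and 0.56 ± 0.31 in KOb (q = 0.0176), and the intervals of -0.13 to 1.11 and -0.05 to 1.18 both reach past 0. Taken as standard normal, the statistic gave q = 0.494 and 0.291, so neither call held. The mutants differed by 0.07 ± 0.31 (interval -0.52 to 0.67).

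Of 7 partners and relatives of RUNX1 tested, 1 rose and 3 fell in each mutant. Among all genes tested, 7.99% were higher and 14.1% lower in KOa, and 12.8% and 15.2% in KOb. The 3 genes of the list with the largest change are given here. Cbfb, which encodes the subunit that stabilises RUNX proteins on DNA, went from 4.74 FPKM in FFa to 1.76 in KOa and 2.17 in KOb (-1.43 ± 0.40 and -1.13 ± 0.38, log2). Runx1t1, the gene of the corepressor ETO, went from 3.48 FPKM to 0.232 and 0.0898. Its close relative Cbfa2t3, the ETO2 corepressor of the erythroid TAL1 complex, went the other way, from 3.49 FPKM to 11.4 and 9.54 (1.71 ± 0.31 and 1.45 ± 0.31). Each of these ratios had a Cuffdiff q of 0.000619 in the authors' deposited table.

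MEIS1 is a homeodomain factor that works with PBX and HOX proteins in stem cells and megakaryocytes. Meis1 (chromosome 11, 18880428 to 19018969) was at 0.108 FPKM in FFa, 0.412 in KOa and 0.589 in KOb. The control was the lowest group and the mutants lay near each other. The rise was called in KOb (log2 ratio 2.45 ± 1.06, Cuffdiff q = 0.0176 in the authors' deposited table) and just missed in KOa (1.94 ± 1.10, q = 0.0516), and KOb against KOa gave 0.52 ± 0.69. The KOb calls of Meis1, Cd34 and Angpt1 were all lost with the statistic taken as standard normal (q = 0.126, 0.149 and 0.148), and these genes were below 1 FPKM in all groups. Among all tested genes with a mean of 0.2 to 1 FPKM over the groups, 7.06% were higher and 13.0% lower in KOb against FFa.

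Of 15 MEIS, PBX and HOX genes listed, 8 were tested in KOa, where 3 fell, and 6 in KOb against FFa, where 2 fell, while 0 rose in either by Cuffdiff. With 7.99% and 12.8% of all genes tested called higher, a count of 0 among so few is near the background. At an unadjusted p below 0.05, 1 was higher in KOa and 0 in KOb. Pknox1, a related homeodomain gene, went from 2.71 FPKM in FFa to 1.48 in KOa and 1.54 in KOb (-0.87 ± 0.38 and -0.81 ± 0.38, log2). Pbxip1, which encodes a PBX-interacting protein, went from 5.10 to 2.83 and 2.66 FPKM (-0.85 ± 0.33 and -0.94 ± 0.33).

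MYB keeps erythroid progenitors dividing, and its decline accompanies terminal maturation. Myb (chromosome 10, 21124930 to 21160984) was at 7.48 FPKM in FFa, 3.61 in KOa and 8.57 in KOb. KOa was the low group, and KOb lay close to the control. Myb fell by 1.05 ± 0.33 in KOa on the log2 scale (Cuffdiff q = 0.000619 in the authors' deposited table), to 48.2% of FFa, and was higher in KOb than in KOa by 1.25 ± 0.33 (q = 0.000619). KOb against FFa gave 0.20 ± 0.31, with an interval of -0.42 to 0.81.

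MYC drives growth and ribosome production and, like MYB, declines as erythroblasts stop dividing. Myc (chromosome 15, 61985341 to 61990361) showed the same order of groups, at 12.8 FPKM in FFa, 6.20 in KOa and 13.5 in KOb. It fell by 1.05 ± 0.32 in KOa on the log2 scale, to 48.3% of FFa, and KOb exceeded KOa by 1.12 ± 0.33 (both with a Cuffdiff q of 0.000619 in the authors' deposited table). The value in KOb against FFa was 0.07 ± 0.31 (interval -0.54 to 0.68). Scaling without globin genes brought the KOa ratios to -0.52 for Myb and -0.51 for Myc and the KOb ratios to 0.71 and 0.58.

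Max, the obligate partner of MYC, was at 22.6, 30.0 and 23.1 FPKM in FFa, KOa and KOb and was called in no comparison. Of 9 genes of the MYC, MAX and MXD network tested, 3 fell in KOa and 4 in KOb, and 0 rose by Cuffdiff. At an unadjusted p below 0.05, 1 was higher in KOa and 0 in KOb. With the statistic taken as standard normal, 0 were lower in KOa and 1 in KOb. The shares over all genes tested were 7.99% higher and 14.1% lower in KOa, and 12.8% and 15.2% in KOb. A count of 0 higher among 9 is near them. Of the 9 genes, 2 whose proteins compete with MYC for MAX were called lower in both mutants by Cuffdiff. Mxd3 went from 61.8 FPKM in FFa to 41.5 in KOa and 28.3 in KOb (-0.57 ± 0.33 and -1.13 ± 0.38, log2), and Mxd4 from 2.24 to 0.742 and 0.530. Mlxip, the gene of a MAX-like network member that senses glucose, fell by 0.90 ± 0.47 in KOb against FFa (Cuffdiff q = 0.00901 in the authors' deposited table).

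In the MYB group of 6 genes, Mybbp1a, which encodes a nucleolar MYB-binding protein, was at 4.41 FPKM in FFa, 4.76 in KOa and 12.3 in KOb. It was called higher in KOb against FFa (1.48 ± 0.30) and against KOa (1.37 ± 0.30). Mybl2, the cell cycle relative of Myb, fell in KOb (-0.76 ± 0.29), and Cebpb, a myeloid factor that cooperates with MYB, fell in KOa (-1.82 ± 0.56) and in KOb (-1.84 ± 0.56). These ratios are log2 values with a Cuffdiff q of 0.000619 in the authors' deposited table.

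LMO4 is a LIM-only protein that binds the adaptor LDB1 and can compete there with LMO2, the erythroid LIM-only factor. Lmo4 (chromosome 3, 144188530 to 144205255) was at 7.59 FPKM in FFa, 2.24 in KOa and 1.68 in KOb, the single member with its highest level in the control. It fell by 1.76 ± 0.46 in KOa and by 2.18 ± 0.49 in KOb (log2, Cuffdiff q = 0.000619 in the authors' deposited table), to 29.5% and 22.1% of FFa. KOb against KOa gave -0.42 ± 0.57, with an interval of -1.53 to 0.69. Both falls kept their call under all 5 other call settings, and their ratios were -1.23 and -1.67 after scaling without globin genes.

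Ldb1, the gene of the adaptor itself, was at 8.66, 9.45 and 11.3 FPKM in FFa, KOa and KOb and was called in no comparison. Of 8 genes of the LDB1 complex tested, 1 rose in KOa, and 1 rose and 1 fell in KOb (median log2 ratio 0.42), which is near the share over all genes tested. At an unadjusted p below 0.05, 5 were higher and 2 lower in KOb relative to the control, and the share over all genes at that threshold was not taken. With the statistic taken as standard normal, 1 was higher and 0 lower. Ssbp2, which encodes a protein that stabilises LDB1, rose from 3.07 FPKM to 9.26 in KOa and 7.08 in KOb (1.59 ± 0.31 and 1.20 ± 0.31, log2). Ssbp3 fell in KOb by 0.43 ± 0.29 on the log2 scale (Cuffdiff q = 0.0469 in the authors' deposited table). Rlim, the gene of a ubiquitin ligase of LDB1 and LMO proteins, was above KOa in KOb by 0.66 ± 0.32.

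CDK6 is a cyclin D-dependent kinase of the G1 phase that is prominent in blood progenitors and is turned down in late erythroblasts. Cdk6 (chromosome 5, 3344312 to 3522225) was at 3.14 FPKM in FFa, 4.47 in KOa and 13.0 in KOb, so KOb stood apart from both TER119-positive groups. Its window is the one of the 4 shown that holds CACGTG. It rose by 2.05 ± 0.33 in KOb against FFa and exceeded KOa by 1.54 ± 0.31 (log2, both with a Cuffdiff q of 0.000619 in the authors' deposited table). KOa against FFa gave 0.51 ± 0.35 (interval -0.18 to 1.20), which did not pass (q = 0.0764). Both KOb calls of Cdk6 held under all 5 other call settings, as did those of Kit.

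Among its partners and inhibitors, 2 of 20 genes tested rose and 1 fell in KOa, and 3 of 19 rose and 3 fell in KOb against FFa. These counts are near the shares over all genes tested, 7.99% higher and 14.1% lower in KOa and 12.8% and 15.2% in KOb. The KOb count of falls depended on the adjustment: 7 were lower with q adjusted within that comparison, and 9 lower and 3 higher had an unadjusted p below 0.05. Between the mutants, 20 were tested. In KOb 3 were higher than in KOa (Ccnd2, Ccnd3, Cdk4) and 6 lower (Cdk2, Cdkn1b, Cdkn2d, E2f2, E2f4, E2f8). Among all genes tested there, 10% were higher and 6.19% lower, so the count of lower genes was above its share. With the statistic taken as standard normal, 0 were higher and 2 lower between the mutants. Ccnd3, the main D cyclin of erythroblasts, was at 172 FPKM in FFa, 80.4 in KOa and 129 in KOb. It fell in KOa by 1.10 ± 0.38 and was higher in KOb than in KOa by 0.68 ± 0.36 on the log2 scale, and KOa was its lowest group, as for Myb and Myc. The close relative Cdk4 was at 27.2, 22.0 and 38.6 FPKM and rose in KOb by 0.50 ± 0.26 against FFa (Cuffdiff q = 0.0264 in the authors' deposited table). Cdkn1a, which encodes the CDK inhibitor p21, rose in both mutants, from 1.15 FPKM to 8.38 in KOa and 7.18 in KOb. Cdkn1b, which encodes p27, was at 32.4 FPKM in FFa, 80.1 in KOa and 39.0 in KOb. It rose in KOa by 1.31 ± 0.28 and was lower in KOb than in KOa by 1.04 ± 0.28 (log2, q = 0.000619). KOa was thus the group with the highest Cdkn1b and the lowest Ccnd3, Myb and Myc.

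**Figure D2:**
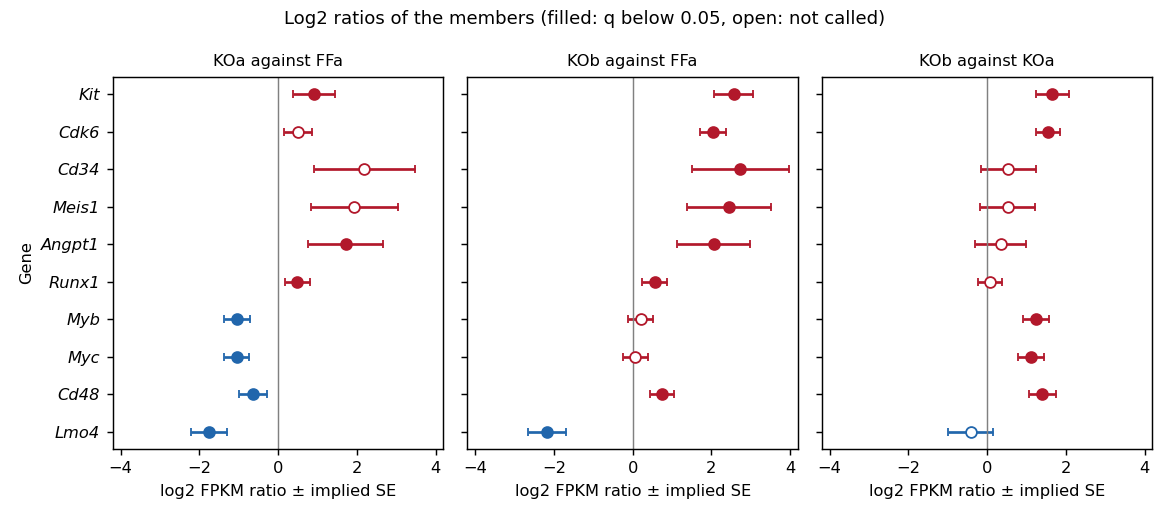
Log2 FPKM ratio of each gene in the 3 comparisons, with the standard error implied by the deposited statistic as the bar; red is above 0, blue below, filled points have q below 0.05. Kit, Cdk6, Myb, Myc and Cd48 are filled in KOb against KOa, at 1.66, 1.54, 1.25, 1.12 and 1.40, and Lmo4 is below 0 in every panel.

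**Figure D3:**
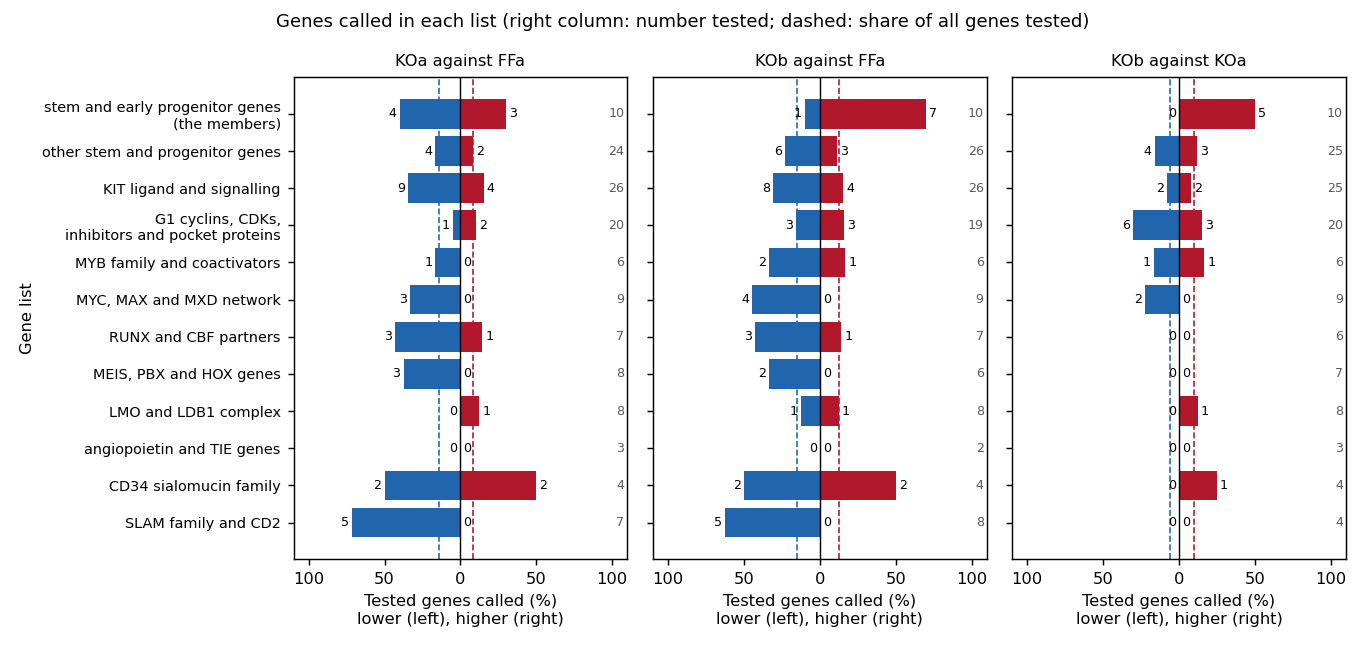
Percent of tested genes called lower (blue, left) and higher (red, right) in each gene list and comparison, with the number called at each bar and the number tested at the right edge; dashed lines give the share over all genes tested. The 10 members have 7 higher in KOb against FFa and 5 higher in KOb against KOa, while 5 SLAM family genes are lower in each mutant against FFa.

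Of 36 other stem and progenitor genes, 24 were tested in KOa and 26 in KOb against FFa. In KOa 2 rose and 4 fell (median log2 ratio -0.09), beside 7.99% higher and 14.1% lower among all genes tested. In KOb 3 rose and 6 fell (median -0.25), beside 12.8% higher and 15.2% lower. Between the mutants, 25 were tested, and 3 were higher and 4 lower in KOb than in KOa (median -0.18). Among all genes tested there, 10% were higher and 6.19% lower. The one-way difference of the members was thus not seen in this list. With the statistic taken as standard normal, 1 was higher and 0 lower between the mutants. Bmi1, a Polycomb gene of stem cell self-renewal, was at 1.68 FPKM in FFa, 1.78 in KOa, then 4.48 in KOb. Its KOb level was above FFa by 1.41 ± 0.37 and above KOa by 1.33 ± 0.35 (log2, Cuffdiff q = 0.000619 in the authors' deposited table). Ly6a, the gene of the stem cell antigen SCA-1, which interferon can induce, was at 5.19, 4.40 and 1.95 FPKM and was lower in KOb than in FFa by 1.41 ± 0.49. Ets1, a factor of lymphoid and early blood cells, fell from 1.36 FPKM to 0.600 in KOa and 0.456 in KOb (-1.19 ± 0.47 and -1.58 ± 0.51).

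Markers of other cell types differed between the groups and could add to the levels of genes that those cells express. Kit and Cd34 are also genes of mast cells and myeloid progenitors. Of 14 granulocyte markers tested, 2 were called higher in each mutant, both of early neutrophil precursors. Mpo was at 8.15 FPKM in FFa, 21.7 in KOa, then 27.3 in KOb, and Ctsg at 3.35, 15.9 and 20.2. Elane and Prtn3, also genes of early neutrophil precursors, were on the list and were called in neither mutant against FFa. Among all genes tested, 7.99% were higher and 14.1% lower in KOa, and 12.8% and 15.2% in KOb. The 14 granulocyte markers summed to 49156 FPKM in FFa and to 16652 and 13517 in KOa and KOb, with 6 and 8 called lower. The mast cell protease gene Cpa3 was at 2.31, 4.26 and 6.09 FPKM, while 4 of 12 mast cell, basophil and eosinophil markers (Ms4a2, Fcer1a, Tpsb2 and Cma1) were below 1 FPKM in every group and Ms4a2, Tpsb2 and Cma1 were listed at 0 in FFa. That list summed to 45.6, 36.3 and 40.7 FPKM. In KOa 3 of 8 tested were higher (Cpa3, Prg2, Epx) and 3 lower (Prss34, Ear1, Hdc), and in KOb 2 of 9 were higher (Cpa3, Prg2) and 2 lower (Prss34, Hdc). The shares over all genes tested are those given with the granulocyte markers.

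Meis1, Angpt1 and Runx1 are also genes of megakaryocytes. Of the 8 megakaryocyte markers tested, 4 were higher and 1 (Gp1bb) lower in KOa, and 4 were higher and 2 (Gp1bb and Vwf) lower in KOb. Among all genes tested, 7.99% were higher and 14.1% lower in KOa, and 12.8% and 15.2% in KOb. The 12 markers summed to 39.6 FPKM in FFa, 71.6 in KOa and 59.0 in KOb. Pf4 was at 3.85, 22.9 and 18.3 FPKM and Itga2b, which early progenitors share, at 1.04, 3.76 and 4.55. Of the 12 markers, 6 were below 1 FPKM in every group, among them Vwf and Ppbp. Lmo4, Cd48, Myb and Myc are expressed in leukocytes too, and besides the B cell markers, 14 macrophage and monocyte markers summed to 92.1, 61.1 and 35.3 FPKM in FFa, KOa and KOb and 9 dendritic cell markers to 20.1, 8.18 and 7.99. Markers of T and NK cells (12 genes) summed to 20.7, 19.6 and 17.3 FPKM, and 11 stromal and endothelial markers to 4.76, 3.47 and 5.69. Lmo4, Cd48, Myb and Myc were all called lower in KOa. In KOb against FFa, Lmo4 was called lower, Cd48 was called higher and Myb and Myc were not called. The part of other cells in the members' values was not tested.

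**Figure D4:**
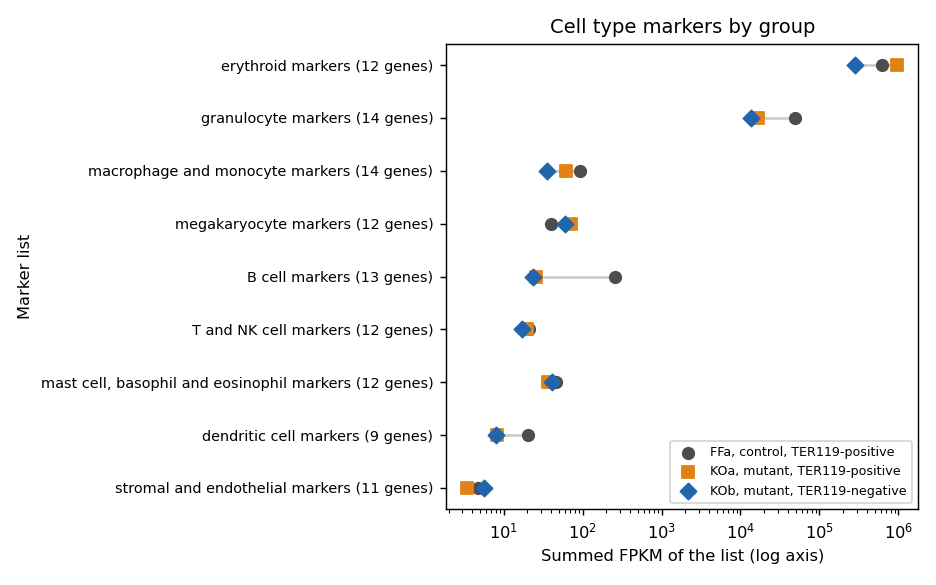
Summed FPKM of each marker list on a log axis, 1 point per group: circles FFa, squares KOa, diamonds KOb. B cell markers drop from 260.0 in FFa to 25.6 and 23.7 in the mutants, and megakaryocyte markers lie between 39.6 and 71.6.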

How the data were processed

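RNA sequencing was done on 9 libraries, 3 for each of FFa, KOa and KOb, prepared from DNase-treated total RNA using NuGEN's Encore Complete system, per the labels' protocols. TopHat2 2.0.8b, Bowtie2 2.1.0 and Cuffdiff 2.1.1 with mm10 are named in the submitters' processing notes. Annotation, scaling and strand setting were not given in the sources used here. FPKM values were computed by the authors and deposited as 1 value per gene and group. The log2 ratio, the test statistic (a score), the p-value and the q-value are the authors' deposited values too, and the deposited q equals a Benjamini-Hochberg adjustment over 31813 tests of the 3 comparisons to within 5.27e-07. The smallest deposited p-value, 5e-05, is a floor that 11 of the members' 30 tests reached.

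Nothing was refitted. Called genes have a completed test and q below 0.05. Implied standard errors, intervals, sums and counts were computed here with Python 3.11.15, pandas 2.3.3 and NumPy 2.4.6, and the p-value adjustment was tested on simulated data. Nothing in the labels ties each library to its own mouse, so p-values may partly measure technical spread. The members, the 11 lists of related genes and the 9 marker lists were chosen with earlier results of these data known, and none is independent support. Named genes are the members, Trim28, 8 ligands, receptors and partners, and from each list up to 3 called genes of largest change with at least 1 FPKM in a group, or the 2 best expressed where none was called. Stat5a, Cdk4, Cdk2, Ccnd2, Cdkn2d, E2f2, E2f4, E2f8, Slamf1, Slamf7, Ly9, Hoxa9, Hoxa10, Gm16897 and the single markers fall outside that rule. They were chosen after their values were seen. Spi1 was not analysed here, and some genes of the lists are counted but not reported by name. The background by FPKM range and the account of untested genes were added after seeing the data. Alternatives were 5 other call rules and 3 other scales of the ratio, which leave the deposited tests as they are.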

Additional observations from a re-analysis of the deposited data

Results flagged for a closer look

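The distance from the control differed between the mutant populations for 5 members, by the deposited test of KOb against KOa. The log2 difference was 1.66 for Kit, 1.54 for Cdk6, 1.40 for Cd48, 1.25 for Myb and 1.12 for Myc, all higher in KOb. Both populations were set against 1 control group, which is TER119-positive, and a TER119-negative control was not analysed here, so deletion and gate cannot be told apart for these differences.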

How the results depend on the processing

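Set against FFa, 7 members were called in KOa and 8 in KOb, and 5 were called between the mutants, and the last count was 5 under all 5 other call rules. With the statistic taken as standard normal, the counts were 3 in KOa (Myb, Myc, Lmo4) and 3 in KOb (Kit, Lmo4, Cdk6). With q below 0.01 they were 3 and 4. A 2-fold minimum left 4 in KOa and an FPKM minimum of 1 left 5 in KOb. Adjusting q within each comparison changed no call of a member. No called ratio of a member changed sign under a pseudocount of 1, scaling without globin genes or centring on the median. Scaling without globin genes raised every ratio to FFa by a fixed amount, since the non-globin sum differed from FFa by -0.54 in KOa and -0.51 in KOb on the log2 scale, and moved 13 of 30 member ratios by more than their standard error. The pseudocount moved 10, among them Kit in KOb against FFa to 1.27. Of 66 counts in the lists of related genes, 29 moved by over 1.5 times with the statistic taken as standard normal, and 25 with the 2-fold minimum. No paired analysis was possible because the deposited table gives 1 value per group, and leaving out single libraries was not run for the same reason.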

Other observations

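Several of the related genes were too low for Cuffdiff to test. Of 36 genes of the related lists tested in no comparison, 27 had their highest FPKM in KOa, 6 in FFa and 3 in KOb. HOX genes were among them: Hoxa10 was at 0.0520 FPKM in FFa, 0.293 in KOa, then 0.169 in KOb, and Hoxa9 at 0.0703, 0.286 and 0.244. Among all 6508 untested genes with values above 0 in all groups, 69.9% were highest in KOa, and their median log2 ratios to FFa were 0.91 for KOa and -0.34 for KOb. Over all genes with a mean of 0.2 to 1 FPKM, tested or not, the range that holds Cd34, Meis1 and Angpt1, the median ratios were -0.15 and -0.14. These values were looked at after the results were known and carry no test.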
